A study of Mus musculus with 12 samples.

Results

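Expression of 10 genes of the Paneth cell and of intestinal antimicrobial defence was followed in RNA-Seq of mouse serrated tumor organoids: Lyz1, Lyz2, Mmp7, Lypd8, Reg3b, Reg3g, Ang4, Pla2g2a, Pigr and Lcn2. They are 10 of the 24906 genes listed in the FPKM tables (reads of a gene divided by its length and by a measure of the library's depth) of 12 libraries, and all 10 were found. The genes are a named set, chosen with earlier results of these data known. Lyz2 stayed below the level needed for a test (a mean of 0.5 FPKM over the 6 libraries of a table), so 9 of the 10 were tested in each table.

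The organoids came from small intestinal tumors of Smad4 f/f; BRAF V600E/+ mice in which Villin-CreERT2, a tamoxifen-activated Cre expressed in the intestinal epithelium, had deleted Smad4. All 12 libraries are labelled with the genotype Smad4KO;BRAFV600E/+ with pINDUCER-SMAD4, a lentivirus from which doxycycline (dox) turns on SMAD4, the common partner of the SMADs that TGFβ and BMP activate. Organoids were grown in BME, a basement membrane extract, or directly on tissue culture plastic, and were collected after 48 h with 4 µg/mL dox or without it. The BME libraries comprised organoid lines 682, 700 and 889 untreated (n = 3), lines 700 and 889 with dox (n = 2) and line 682 with dox labelled mock (n = 1). Lines 560, 700 and 889 were sequenced on plastic, each untreated (n = 3) and with dox (n = 3), so that lines 700 and 889 were measured in both environments, line 682 in BME and line 560 on plastic. The mock library counted as a control, as in the study, and the same-line libraries were also compared pair by pair.

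Paneth cells sit at the base of small intestinal crypts and release granules of antimicrobial proteins into the lumen. Lysozyme (Lyz1), α-defensins, angiogenin 4 (Ang4) and secretory phospholipase A2 (Pla2g2a) are granule products, and the metalloprotease Mmp7 cuts mouse pro-defensins into their active form. Enterocytes and goblet cells add other layers of defence: the C-type lectins Reg3b and Reg3g bind bacteria, Lypd8 binds flagella in the large intestine, Pigr carries IgA across the epithelium and Lcn2 traps bacterial siderophores. Lyz2 is the lysozyme of macrophages.

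The positions below are those of the mouse build NCBIM37 (mm9) and GENCODE vM1. The lysozyme genes are neighbours on the minus strand of chromosome 10, Lyz1 at chr10:116724852-116729924 and Lyz2 at chr10:116714390-116719377, with 5474 bases between them. Reg3b (chr6:78320879-78323460, plus strand) and Reg3g (chr6:78416262-78418868, minus strand) lie 92801 bases apart. The remaining protein-coding genes are Mmp7 at chr9:7692086-7699585, Lypd8 at chr11:58192545-58204230 (listed there as 2210415F13Rik), Ang4 at chr14:52383553-52393265, Pigr at chr1:132723261-132748826 and Lcn2 at chr2:32240153-32243317. Pla2g2a at chr4:138387772-138391101 is annotated as a processed transcript in GENCODE and as a transcribed pseudogene in RefSeq, since some inbred strains carry a disrupted copy, so its FPKM describes RNA and not an enzyme. It overlaps Pla2g5 on the opposite strand, which reached at most 11.2 FPKM in any library.

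The neighbouring lysozyme genes share much of their sequence, which matters for telling their reads apart. Of the 1234 different stretches of 31 bases in the Lyz1 transcripts, 422 (34.2%) also occur in Lyz2, whereas Reg3b and Reg3g share 5, and Mmp7, Lypd8 and Lcn2 share none with another protein-coding gene. Ang4 shares 84 of 679 with other angiogenin genes, of which Ang5 and Ang6 were listed at 0 in every library and Ang2 reached at most 0.190 FPKM. The start sites of Lyz1 and Lyz2 are shown because they are so alike while the levels of the genes were not (RefSeq, GRCm38.p6, chr10:117292819-117292998 and chr10:117282223-117282402, minus strand, 130 bases before to 50 after the start). Bases further upstream were left out, and there the listed sequences were less alike (not counted). Capitals mark the 11 of the 180 positions shown at which the sequences differ.
Lyz1: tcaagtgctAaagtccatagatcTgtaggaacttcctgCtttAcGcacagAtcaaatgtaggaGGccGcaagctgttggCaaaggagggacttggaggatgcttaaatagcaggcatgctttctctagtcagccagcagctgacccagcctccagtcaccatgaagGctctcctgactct
Lyz2: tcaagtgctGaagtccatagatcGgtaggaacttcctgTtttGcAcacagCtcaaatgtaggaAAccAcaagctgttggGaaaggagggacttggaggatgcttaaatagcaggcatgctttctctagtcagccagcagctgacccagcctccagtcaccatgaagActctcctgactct

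The promoters of Reg3b, Reg3g and Mmp7 are shown because these genes held different levels in the same lines (GRCm38.p6, 250 bases before to 50 after the start, at chr6:78370635-78370934 on the plus strand, chr6:78468825-78469124 on the minus strand and chr9:7691840-7692139 on the plus strand). Capitals mark matches to any of 5 motifs searched on both strands: CTTTGAT (TCF/LEF), TTCNNNGAA (STAT), TGANTCA (AP-1), GTCTAGAC and CAGACA (SMAD).
Reg3b: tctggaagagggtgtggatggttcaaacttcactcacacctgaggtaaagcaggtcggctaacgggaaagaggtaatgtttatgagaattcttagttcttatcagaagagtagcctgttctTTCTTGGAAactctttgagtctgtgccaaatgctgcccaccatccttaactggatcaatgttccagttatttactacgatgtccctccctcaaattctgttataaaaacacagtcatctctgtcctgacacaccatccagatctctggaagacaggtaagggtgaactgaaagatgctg
Reg3g: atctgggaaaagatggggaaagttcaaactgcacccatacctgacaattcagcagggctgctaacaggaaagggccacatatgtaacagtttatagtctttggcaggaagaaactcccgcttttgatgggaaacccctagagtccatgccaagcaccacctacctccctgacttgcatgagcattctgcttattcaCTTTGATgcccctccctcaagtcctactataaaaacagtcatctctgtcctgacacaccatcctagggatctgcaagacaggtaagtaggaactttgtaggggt
Mmp7: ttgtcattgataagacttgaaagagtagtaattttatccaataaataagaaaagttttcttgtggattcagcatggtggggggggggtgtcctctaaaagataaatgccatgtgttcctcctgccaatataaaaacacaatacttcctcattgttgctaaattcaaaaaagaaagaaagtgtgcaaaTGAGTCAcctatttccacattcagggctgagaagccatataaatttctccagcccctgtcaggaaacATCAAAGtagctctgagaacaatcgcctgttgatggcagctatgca

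Promoters were listed for 9 of the 10 genes, all but Pla2g2a. The TCF/LEF letters occurred in Mmp7 and Reg3g and in 3.73% of all 32851 promoters. The STAT letters occurred in Ang4, Pigr and Reg3b (8.3% of all promoters) and the AP-1 letters in Ang4 and Mmp7 (7.81%). The SMAD palindrome occurred in none of the 9 (0.213%) and CAGACA in Lcn2 and Mmp7 (21.0%), for Mmp7 in the window of a second listed start, chr9:7692091-7692390 on the plus strand, which is not shown. These are matches of letters in short windows and not measured binding sites.

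The depth behind the FPKM values was 14531431 to 16335377 reads for a BME library and 17030593 to 21075740 for a plastic library, and 15723 to 16805 genes were above 0 in a library. Smad4, the gene dox was meant to induce, was higher in the dox than in the untreated library of each line, at 17.2 and 27.3 FPKM against 6.53 and 6.23 in BME and at 73.6, 18.1 and 48.9 against 1.54, 2.99 and 4.76 on plastic (lines 560, 700 and 889), while the mock library held 10.3 against 8.88. Epcam was between 120 and 569 FPKM in all 12 libraries. The defining myeloid markers Ptprc, Itgam, Tyrobp and Adgre1, the fibroblast markers Col1a2, Dcn and Pdgfra and the endothelial markers Pecam1 and Cdh5 were below 1 FPKM in every library. Other listed markers were not: Csf1r reached 1.26, Fcer1g 1.44, Cd14 36.8 and Cd68 38.7 FPKM, Col1a1, Vim and Acta2 were at 4.13, 2.39 and 1.28 FPKM in dox line 889 in BME, and Vim was at 21.6 FPKM in dox line 889 on plastic. The dox library of line 889 on plastic stood apart in several marker genes (given with its values).

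The levels of these genes differed widely between organoid lines within each environment. Untreated organoids of line 889 in BME and of line 560 on plastic held several of the 10 genes among the most abundant transcripts of the library. Pla2g2a, Lyz1, Reg3b and Ang4 were at 2.59 FPKM or less in lines 682 and 700 in BME. Summed over the 10 genes, the untreated level in BME was 172, 374 and 5356 FPKM in lines 682, 700 and 889, and on plastic it was 2677, 3.69 and 6.44 FPKM in lines 560, 700 and 889. With treatment the sums were 167 (mock, line 682), 229 (line 700) and 2227 FPKM (line 889) in BME and 1511, 0.585 and 112 FPKM on plastic (lines 560, 700 and 889). In bulk RNA, fewer Paneth-like cells and less RNA per cell cannot be told apart.

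**Figure D1:**
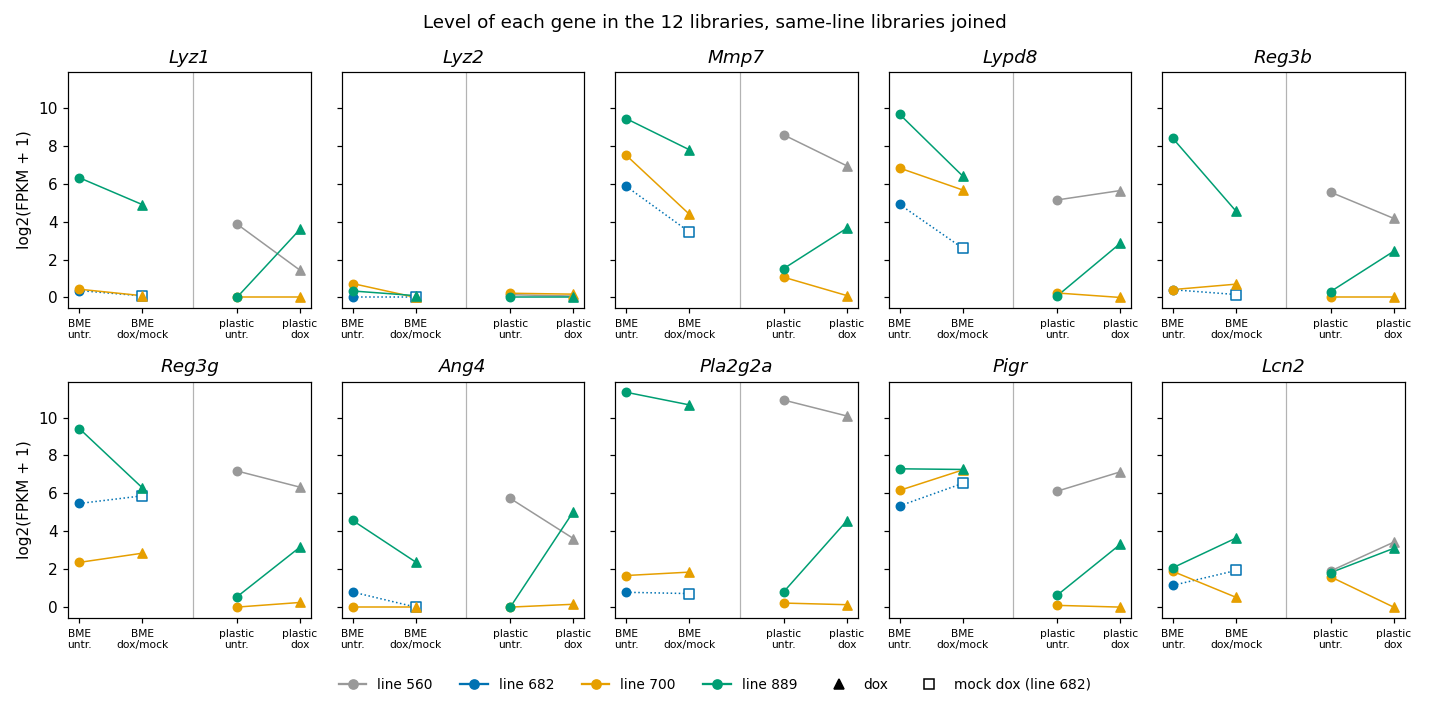
Level of each of the 10 genes as log2(FPKM + 1) in the 12 libraries, with untreated (circles), dox (triangles) and mock dox (open square) libraries of a line joined, BME on the left and plastic on the right of each panel. The line colors separate by more than the treatments do for most genes, and line 889 (green) falls by over 1 in BME and rises by over 1 on plastic for 6 of them.

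Several granule genes were high in single lines. Pla2g2a, the most abundant gene of the set in line 889 in BME and line 560 on plastic, was at 0.719, 2.17 and 2576 FPKM in untreated lines 682, 700 and 889 in BME. With treatment it was 0.639 (mock), 2.59 and 1625 FPKM in the same lines. On plastic it was 1936, 0.159 and 0.750 FPKM untreated and 1082, 0.0917 and 22.4 FPKM with dox in lines 560, 700 and 889. Line 889 in BME and line 560 on plastic were thus high with and without dox, and no other plastic library passed 22.4 FPKM. In untreated line 889 in BME its rank was 99.9, meaning that 99.9% of the genes of that library had a lower FPKM, and in line 560 on plastic it was 99.7 both untreated and with dox.

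Lyz1, the Paneth cell lysozyme, was at 0.286, 0.351 and 78.7 FPKM in untreated lines 682, 700 and 889 in BME, and at 0.0592 (mock), 0.0656 and 28.8 FPKM with treatment. On plastic it was 13.7, 0 and 0 FPKM untreated and 1.71, 0 and 11.0 FPKM with dox in lines 560, 700 and 889. In lines 682 and 700 in BME this was 1 to 6 reads per library, against 1482 and 528 in line 889. A count of 0 allows up to 3 reads in a library. Its neighbour Lyz2 never passed 9 reads or 0.662 FPKM (untreated line 700 in BME) and was listed at 0 in 5 of the 12 libraries. Even where Lyz1 had 1482 reads, Lyz2 had 4.

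Ang4 was at 0.733, 0 and 22.8 FPKM in untreated lines 682, 700 and 889 in BME and at 0 (mock), 0 and 4.19 FPKM with treatment. On plastic its level was 52.1, 0 and 0 FPKM untreated and 11.3, 0.109 and 31.7 FPKM with dox in lines 560, 700 and 889. On plastic the highest library was thus untreated line 560, and dox line 889 followed it.

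Mmp7 was less restricted in BME, where every library held at least 10.02 FPKM. Its untreated levels were 57.3, 181 and 691 FPKM in lines 682, 700 and 889, against 10.02 (mock), 20.1 and 221 FPKM with treatment. On plastic Mmp7 was 380, 1.10 and 1.88 FPKM untreated and 122, 0.0719 and 11.5 FPKM with dox in lines 560, 700 and 889. In BME each treated library, the mock included, lay below the untreated library of its line, but the range of the dox libraries lay within that of the controls.

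Among the genes that enterocytes and goblet cells also express, Lypd8 followed the same lines as Mmp7. It was at 29.1, 112 and 811 FPKM in untreated lines 682, 700 and 889 in BME and at 5.07 (mock), 49.9 and 84.0 FPKM with treatment. On plastic it was 34.3, 0.178 and 0.0557 FPKM untreated and 48.8, 0 and 6.22 FPKM with dox. As with Mmp7, every treated library in BME was below its untreated partner.

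The lectins Reg3b and Reg3g separated in lines 682 and 700 although both were high in line 889. In BME, Reg3b was at 0.326, 0.334 and 333 FPKM untreated and at 0.113 (mock), 0.626 and 22.5 FPKM with treatment in lines 682, 700 and 889. Reg3g was at 43.2, 4.13 and 684 FPKM untreated and at 57.4 (mock), 6.18 and 77.3 FPKM with treatment. Line 682 therefore had 416 and 536 reads of Reg3g but 3 and 1 of Reg3b. On plastic Reg3b was 45.9, 0 and 0.238 FPKM untreated and 17.0, 0 and 4.40 FPKM with dox in lines 560, 700 and 889. Reg3g was 144, 0 and 0.452 FPKM untreated and 79.3, 0.184 and 7.95 FPKM with dox.

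Pigr was high in every BME library. Its level there was 39.4, 70.3 and 156 FPKM untreated (88.5 ± 60.4, SD, n = 3) and 91.0 (mock), 149 and 152 FPKM with treatment, and its rank was between 90.4 and 98.0 in all 6 libraries. On plastic it was 68.2, 0.0660 and 0.545 FPKM untreated and 139, 0 and 8.91 FPKM with dox in lines 560, 700 and 889, so that the rank was between 18.4 and 74.0 in lines 700 and 889. Lcn2 was at most 11.5 FPKM in any library. It was at 1.22, 2.69 and 3.22 FPKM in untreated lines 682, 700 and 889 in BME (2.37 ± 1.04, SD, n = 3) and at 2.81 (mock), 0.430 and 11.5 FPKM with treatment. On plastic the untreated lines were close to each other at 2.74, 2.03 and 2.52 FPKM (2.43 ± 0.368, SD, n = 3), whereas the dox libraries were at 9.71, 0 and 7.55 FPKM.

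**Figure D2:**
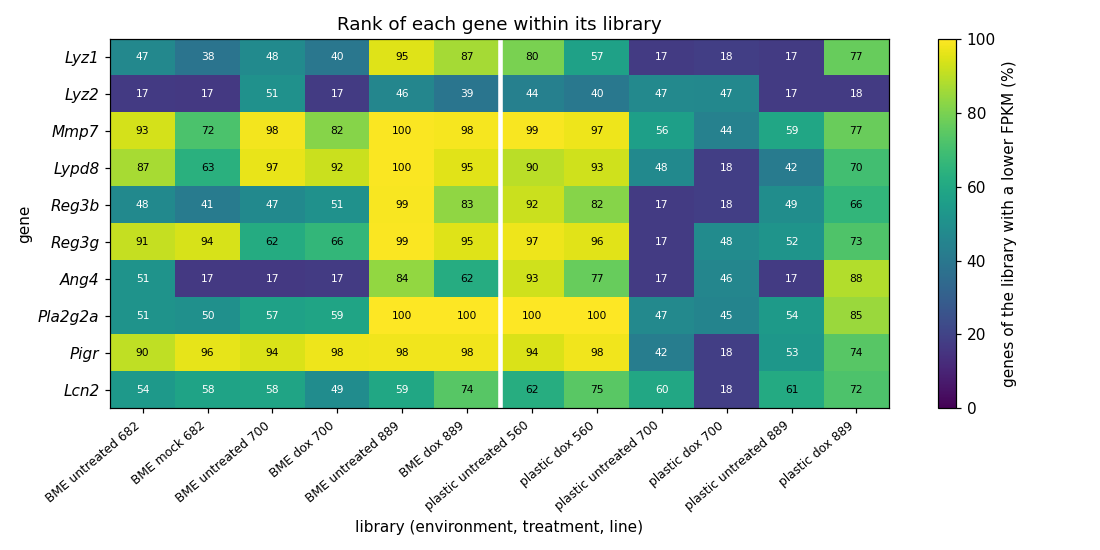
Rank of each gene within its library, as the percent of the 24906 listed genes with a lower FPKM (ties at their mean rank), for the 6 BME libraries on the left and the 6 plastic libraries on the right, ordered by line. Line 889 in BME and line 560 on plastic are bright for most genes, lines 700 and 889 on plastic are dark when untreated, and dox line 889 on plastic is brighter than its untreated partner for the 9 tested genes.

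The FPKM tables of BME and plastic were normalized separately, so FPKM values are listed for each environment on their own, no level was tested between them, and the environments were compared by rank. Over the 10 genes the median rank of line 889 was 98.5 in BME and 50.4 on plastic without dox, and 90.8 and 73.3 with dox. In line 700 it was 57.8 in BME and 44.7 on plastic without dox, and 54.6 and 31.1 with dox. Mmp7, Lypd8 and Pigr had ranks of 94.5 to 98.2 in untreated line 700 in BME and of 42.5 to 56.4 in the same line on plastic. Of the 120 values (10 genes in 12 libraries), 78 lay in the upper 50% of their library, and 69 did when dox line 889 on plastic was left out.

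The spread between untreated lines is given beside that of all genes tested. In BME, Lyz1, Reg3b and Ang4 passed the minimum of 0.5 FPKM only through line 889, in which they were high (at most 0.351, 0.626 and 0.733 FPKM in the other 4 libraries), so a large spread was a condition of their being tested, and counts and medians over the 9 genes in BME are descriptions. The SD over the 3 untreated lines, on the log2(FPKM + 1) scale, had a median of 2.44 over the 9 tested genes in BME against 0.249 over all 12996 genes, and 3.31 against 0.348 over 12333 genes on plastic. Pla2g2a had the largest SD of the set, 5.85 in BME and 6.02 on plastic. Lcn2 had the smallest, 0.489 in BME and 0.158 on plastic, and on plastic only 18.5% of all genes varied less.

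A test of the line in a fit with line and dox (limma F test, adjusted by the Benjamini-Hochberg method over all genes tested) was added after these values had been seen. In BME no test is given for Lyz1, Reg3b and Ang4, which entered the fit through line 889, and their line means differed by up to 5.38, 6.19 and 3.47 (log2). Of the other 6 genes, 2 were called at an adjusted p under 0.05, where 15.5% of all genes tested were. These were Pla2g2a with a largest difference between line means of 10.25 (log2, adjusted p = 0.000644) and Reg3g with 5.26 (adjusted p = 0.0387), each by limma. Mmp7 and Lypd8 missed the threshold (limma, adjusted p = 0.0505 and 0.0512), as did Pigr and Lcn2 (0.326 and 0.267).

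On plastic the same limma test called 3 of the 9 genes, against 1.64% of all genes tested. Pigr differed between lines by up to 6.58 (log2, adjusted p = 0.0314), Pla2g2a by 10.33 (adjusted p = 0.0357) and Reg3g by 6.63 (adjusted p = 0.0464). Mmp7 (7.17, adjusted p = 0.0503) and Lypd8 (5.27, adjusted p = 0.0623) were just outside the threshold in limma. These calls depended on the filter and on single libraries. Without the filter Reg3g lost its call in BME (limma, adjusted p = 0.0961), and 0 genes were called on plastic (limma, lowest adjusted p = 0.146). In BME Reg3g was not called with any 1 library left out, and Pla2g2a was not called without dox line 700, dox line 889 or untreated line 889 (limma, adjusted p up to 0.104 and 0.0712). On plastic 0 were called without either library of line 560, and 6 to 8 without any other library, with 8 called without dox line 889 (all but Lcn2).

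No change with dox common to the lines was called. With dox and control libraries compared without regard to line (limma, adjusted p under 0.05 and a change over 1), 0 of the 9 genes were called in BME, against 0.0231% of all genes tested, and 0 of 9 on plastic, against 0.0324%. The smallest unadjusted p was 0.113 (Pigr in BME), so none passed 0.05 before adjustment either, and adjusted p ranged from 0.959 to 0.999 in BME and from 0.930 to 0.992 on plastic (limma). Fitted changes ran from -1.21 (Reg3g, SE 1.92) to 2.63 (Pla2g2a, SE 3.76) in BME and from -0.16 (Mmp7, SE 2.44) to 1.20 (Pigr, SE 2.20) on plastic, with medians of 0.29 and 0.67 over the 9 genes beside -0.0057 and 0.0088 over all genes. Without dox line 889 the plastic median was 0.13. Dox and control libraries that did not overlap were seen for 0 of 9 genes in each environment, where 12.2% of all genes in BME and 15.1% on plastic had them. For so few genes this is near the share over all genes. Standard errors were 0.50 to 3.76, so a change common to the lines was not detectable unless it was large.

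The organoid line pairs the dox and untreated libraries, and with the line as a block the fitted changes in BME were -2.37 for Mmp7, -2.21 for Lypd8, -1.77 for Reg3b, -1.32 for Reg3g, -1.10 for Ang4, -0.88 for Lyz1, -0.24 for Pla2g2a, 0.10 for Lcn2 and 0.52 for Pigr. Their median was -1.10, against 0.29 without the block. None was called (limma, lowest adjusted p = 0.67), but Lypd8, Reg3b, Lyz1 and Pla2g2a had the opposite sign without the block (0.04, 0.29, 0.70 and 2.63), where the high line 889 makes up 1 of 2 dox but 1 of 4 control libraries. On plastic, where each line has both libraries, the block left the fitted changes as they were and the lowest adjusted p was 0.409 (Pigr).

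Within lines, 2 genes fell by over 1 with treatment in every BME pair. Mmp7 fell by 3.11 in line 700 and fell by 1.64 in line 889 on the log2(FPKM + 1) scale, while Lypd8 fell by 1.16 in line 700 and fell by 3.26 in line 889. A fall of over 1 in both dox pairs was thus seen for 2 of 9 genes, against 0.339% of all genes tested, and a rise of over 1 in both for 0 of 9 (0.523%). The mock pair moved the same way: in line 682 Mmp7 fell by 2.40 and Lypd8 fell by 2.31. Including the mock pair, 2 of 9 genes fell by over 1 in all 3 pairs, against 0.162% of all genes tested. Most goblet cell products listed moved with them: in the mock, line 700 and line 889 pairs the changes were -2.70, -1.55 and -2.38 for Muc2, -5.64, -3.49 and -1.48 for Tff3, -2.97, -1.32 and -2.10 for Clca1, -4.40, -2.16 and -2.01 for Fcgbp and -3.54, -1.60 and -1.71 for Reg4, while the goblet marker Agr2 changed by -0.06, -0.91 and -0.40 and Itln1, a lectin of Paneth and goblet cells, by -0.06, 1.17 and 1.65. Reg4 and Itln1 are not on the goblet list and were picked after their values were seen. Their part in the change of Mmp7 and Lypd8 was not tested. The labels of the mock library give the SMAD4 construct in the genotype but call the treatment mock, and its Smad4 level was close to that of its partner, so a change with dox itself and a change with SMAD4 cannot be told apart here.

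**Figure D3:**
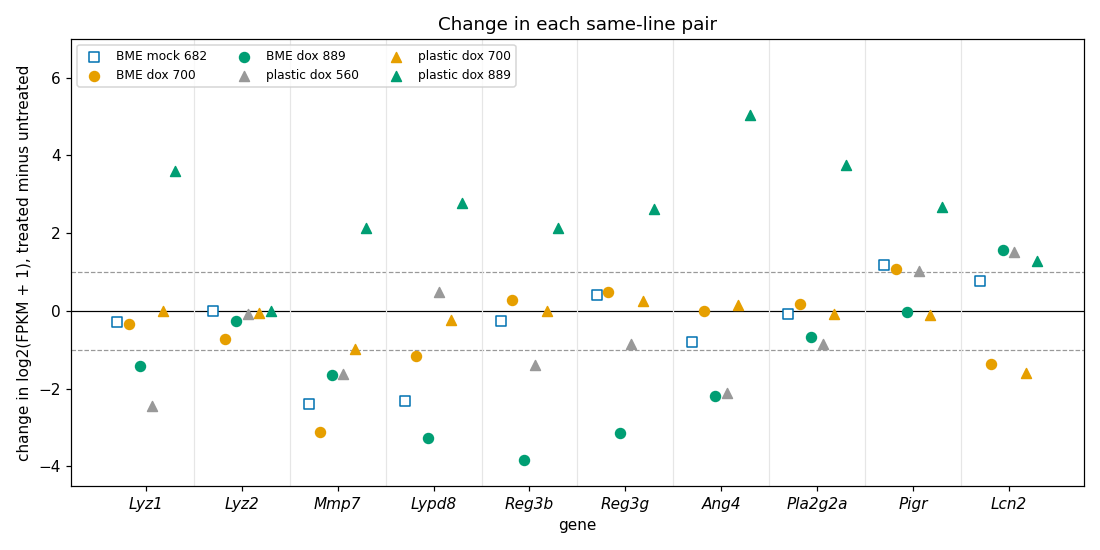
Change in log2(FPKM + 1), treated minus untreated, of each gene in the 6 same-line pairs (circles BME dox, open squares BME mock, triangles plastic dox; colors are lines; dashed lines at a change of 1 in either direction). Mmp7 and Lypd8 lie below -1 in the 3 BME pairs, and the green triangles (line 889 on plastic) lie above 1 for 9 of the 10 genes.

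In line 889 in BME, 6 of the 9 tested genes fell by over 1 (Lyz1, Mmp7, Lypd8, Reg3b, Reg3g and Ang4), where 1.67% of all genes tested did. Lyz1, Reg3b and Ang4 were tested in BME only because this line was high, so the count is a description, and of the other 6 genes 3 fell by over 1. The largest changes were in Reg3b (-3.83, from 333 to 22.5 FPKM) and Lypd8 (-3.26, from 811 to 84.0 FPKM). Lcn2 alone rose by over 1 (1.57), against 2.49% of all genes. In line 700 in BME, 3 of 9 fell by over 1 (Mmp7, Lypd8 and Lcn2), against 1.79%, and Pigr rose by 1.08, against 1.75% of genes that rose. Without Lyz1, Reg3b and Ang4 the count in line 700 was likewise 3 of 6. These genes were at most at 0.733 FPKM in untreated lines 682 and 700, too low to fall by over 1 on the log2(FPKM + 1) scale. In the mock pair, 2 of 9 fell by over 1 (1.18% of all genes) and Pigr rose by 1.19 (1.29%). Pigr therefore rose by over 1 in the mock and line 700 pairs and changed by -0.03 in line 889, where it was already at 156 FPKM.

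On plastic the 3 lines moved in different ways. In line 560, which started high, 4 of 9 genes fell by over 1 (Lyz1 with a change of -2.44, Ang4 -2.11, Mmp7 -1.63 and Reg3b -1.38), against 4.77% of all genes tested, while Pigr and Lcn2 rose by 1.02 and 1.52 (10% of all genes rose). In line 700, which started near 0, Lcn2 fell by 1.60 and was the only gene to fall by over 1 (3.92% of all genes), and 0 of 9 rose (3.96%). In line 889 all 9 tested genes rose by over 1, against 7.32% of all genes, and 0 fell (4.73%), with changes from 1.28 (Lcn2) to 5.03 (Ang4). No gene of the set rose by over 1 in all 3 plastic pairs (0.876% of all genes) or fell in all 3 (0.414%). In untreated lines 700 and 889 only Mmp7 and Lcn2 were at 1 FPKM or more. A gene below 1 FPKM cannot fall by over 1 on the log2(FPKM + 1) scale, so the counts of falls in these lines were largely fixed in advance. Pigr and Lcn2 rose by over 1 in lines 560 and 889, as 2.45% of all genes did.

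Line 889 thus moved in opposite directions in BME and on plastic. The count was made after these values had been seen: 6 of the 9 genes fell by over 1 in BME and rose by over 1 on plastic in this line, where 0.376% of the 11977 genes tested in both tables did. The count is a description, since Lyz1, Reg3b and Ang4 passed the BME minimum only through this line, and without them it was 3 of 6. These 6 genes started at 22.8 FPKM or more in BME and at 1.88 FPKM or less on plastic. All of them but Mmp7 were below 1 FPKM there, where a fall of over 1 is not possible on the log2(FPKM + 1) scale. The starting level was thus in part a condition of the count, and its part in the direction was not tested. Each direction rests on 1 pair. The count cannot be given without dox line 889 on plastic, since that pair is 1 side of it. In line 700 none of the 6 moved in opposite directions by over 1. The difference of the dox change between environments, tested as an interaction over all 12 libraries (limma), was called for 0 of the 9 genes and for 0.0% of the 11977 genes tested, with 159 of those genes at an unadjusted p under 0.05 and a difference over 1. The 9 adjusted p were 1.00, and with the line within each environment as a block the lowest was 0.890.

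The dox library of line 889 differed from the other plastic libraries in other Paneth cell products too. Of the 24 listed α-defensin genes (Defa), the peptides that Mmp7 activates, 16 were at 1 FPKM or more in this library, with a sum of 421 FPKM. In the other 5 plastic libraries at most 2 were at 1 FPKM or more, and the sum was at most 8.02 FPKM (untreated line 560). Within BME the sum was at most 41.7 FPKM (dox line 889). Defa17 was at 77.2 FPKM in this library, at 1.19 and 4.17 FPKM in dox and untreated line 560, and at 0 in the other 3 plastic libraries. In BME it was at 24.5 and 11.1 FPKM in dox and untreated line 889 and at 0 in the other 4. Defensin genes are nearly identical in sequence, so reads may be divided among them. The same library held 21.6 FPKM of Vim, 38.7 of Cd68, 16.6 of Slpi, 2262 of Ccl20, 12.2 of S100a8 and 6.36 of S100a9, each the highest of the 6 plastic libraries, and 25.7 of Cd14, which was within their range, while the defining myeloid markers (Ptprc, Itgam, Tyrobp and Adgre1) summed to under 1 FPKM. In line 889 in BME, Defa17 was higher with dox although Lyz1 and Reg3b were lower. Whether the other cells or the state these markers stand for had a part in the rise of the 9 genes in this library was not tested.

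**Figure D4:**
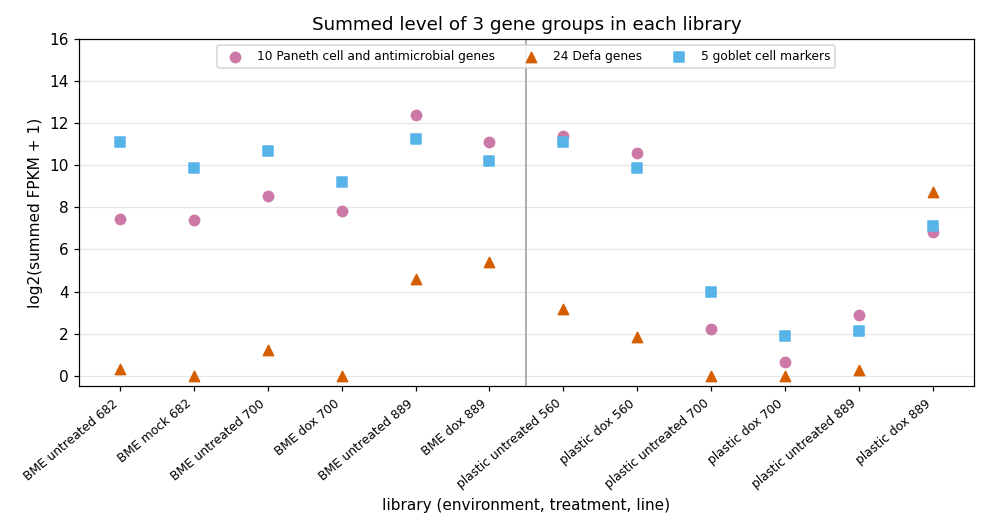
Summed level, as log2(summed FPKM + 1), of the 10 genes, of 24 Defa genes and of 5 goblet cell markers in each of the 12 libraries ordered by line. The 10 genes and the goblet markers are low together in lines 700 and 889 on plastic, and the Defa genes of the plastic libraries are highest in dox line 889 (421 FPKM). The tables were normalized separately, so heights compare within an environment.

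The 5 goblet cell markers listed, among them the mucin Muc2 and the trefoil factor Tff3, were low in the same plastic libraries. On plastic their sum was 927 and 2219 FPKM in dox and untreated line 560, but 2.69 and 14.6 FPKM in dox and untreated line 700 and 138 and 3.31 FPKM in dox and untreated line 889. Over the 6 BME libraries it was 594 to 2441 FPKM. Over the 12 libraries, with log2(FPKM + 1) centred within each table, the genes most like Mmp7 were Reg4 (r = 0.967) and Muc2 (r = 0.965), a regenerating-family lectin and the main gel-forming mucin. The nearest genes to the others were Spats2l and Hif3a for Lypd8, Phf11d and Fstl4 for Reg3b, Hsd11b2 and Stra6l for Reg3g, Pigx and Ccdc3 for Ang4, Ifitm1 and Slc14a1 for Pla2g2a, Notum and Slc25a35 for Pigr, and Fermt1 and Cd74 for Lcn2, with r from 0.925 to 0.988 among 11976 genes. Among the 9 genes themselves r ran from 0.477 (Lypd8 and Lcn2) to 0.951 (Reg3b and Pla2g2a), and it was 0.935 for Mmp7 and Lypd8. The libraries share lines, so these r are descriptions.

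The wider set of Paneth cell and defence genes was likewise not called. Of the Paneth products, 0 of 11 tested in BME and 0 of 18 on plastic passed (limma, lowest adjusted p = 0.959 and 0.778), with median changes of 0.70 and 1.02 beside -0.0057 and 0.0088 over all genes. With the line as a block the BME median had the opposite sign, -0.24 (4 of 11 above 0; limma, lowest adjusted p = 0.348), and the plastic median did not change. Without dox line 889, 10 Paneth products were tested on plastic and their median change was 0.019. The rest (Mptx2 and the tested Defa genes other than Defa17) had passed the filter only through that library, in which they were high. A rise was thus a condition of their test. In BME, Lyz1, Ang4, Defa17 and Defa24 passed the filter only through line 889, so the medians over this list are descriptions. Of the genes for Paneth cell specification and signals, 0 of 12 and 0 of 11 passed, with median changes of -0.08 and 0.05. Of the epithelial antimicrobial genes 0 of 18 passed in each environment (medians -0.22 and 0.18, the latter -0.19 without dox line 889), and of the receptors and mediators upstream of them 0 of 20 in each (0.06 and 0.16). Without dox line 889 the plastic medians of the specification genes and of these upstream genes were 0.17 and 0.057. With the block the BME medians of the specification, antimicrobial and upstream lists were -0.25, -0.87 and -0.0066, beside -0.011 over all genes, and 0 genes were called.

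Of the transcription factors of the secretory lineage named here, Atoh1 and Spdef followed the lines on plastic, and in BME only Atoh1 was highest in line 889. Atoh1, which commits crypt cells to the secretory lineage, was on plastic at 4.10 and 4.88 FPKM in dox and untreated line 560 but at most 0.278 FPKM in lines 700 and 889. In BME Atoh1 was at 4.07, 2.26 and 7.41 FPKM in untreated lines 682, 700 and 889 and at 0.538 (mock), 0.632 and 2.60 FPKM with treatment. Sox9, needed for Paneth cells to form, was at 22.3 FPKM or more in all 12 libraries. In BME it was at 105, 97.9 and 52.5 FPKM in untreated lines 682, 700 and 889, and so lowest in line 889. Spdef, which drives goblet and Paneth cell maturation, was on plastic at 6.23 and 17.6 FPKM in dox and untreated line 560 but at most 1.53 FPKM in lines 700 and 889. In BME Spdef was at 24.9, 20.5 and 15.4 FPKM in untreated lines 682, 700 and 889, again lowest in line 889, and at 21.1 (mock), 6.33 and 15.5 FPKM with treatment.

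Of the genes upstream, Socs3, the feedback inhibitor of STAT3 signalling that also lies downstream of IL-22, had the largest change on plastic. It was at 26.4, 48.0 and 53.8 FPKM with dox and 4.94, 4.73 and 1.97 FPKM untreated in lines 560, 700 and 889, groups that did not overlap (3.17 ± 0.39 SE, limma adjusted p = 0.108). In BME Socs3 was at 25.1 and 24.6 FPKM with dox and 4.91 and 11.0 FPKM untreated in lines 700 and 889, but the mock library was also above its partner (12.2 against 3.43 FPKM; fitted change 1.69 ± 0.48 SE, limma adjusted p = 0.959). Ccl20, an epithelial chemokine with antimicrobial activity, had fitted changes of 2.51 in BME and 3.05 on plastic (limma adjusted p = 0.959 and 0.690). In the BME pairs Ccl20 changed by 0.47 (mock), 0.71 (line 700) and 5.15 (line 889). It was higher in dox lines 560 and 889 on plastic (660 and 2262 against 19.4 and 24.1 FPKM) and was lower in dox line 700 (19.9 against 106 FPKM). The receptor Il22ra1 was at 2.60 FPKM or more in all 12 libraries.

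The remaining genes with the largest fitted changes had limma adjusted p of 0.583 or more. In BME these were the Paneth and goblet cell lectin Itln1 (2.35), the brush border enzyme Sis (2.12) and Defa17 (1.43), and each was higher in line 889 than in other lines. Within lines 700 and 889 their changes were smaller on average, at 1.17 and 1.65 for Itln1, 0.56 and 1.95 for Sis and 0 and 1.07 for Defa17. On plastic they were Defa20 (1.93, above 0 only in dox line 889), Vim (1.72) and the basic helix-loop-helix factor Tcf4 (1.70; not the WNT effector also called TCF4, which Tcf7l2 encodes), which was higher with dox in each line, at 14.1, 3.52 and 21.4 against 4.07, 0.986 and 3.38 FPKM.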

How the data were processed

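RNA was extracted from the organoids and sequenced as 12 libraries. Per the labels and the study's methods, the authors quantified transcripts with kallisto and compared groups with DESeq2 on the mouse build mm9, with versions not given in the sources used here. FPKM values were deposited by the authors as 1 table per environment, normalized on its own 6 libraries. The deposited comparison tables give a mean normalized signal per gene, used here to recover reads, and the authors' own fold changes and p-values, which were not used. Of low values (under 20 reads), 82.6% to 88.0% per library came out as whole reads within 0.05. The precision of low genes is limited by counting error.

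Values were analysed as log2(FPKM + 1), which understates changes of low genes. Genes with a mean of at least 0.5 FPKM per table were tested with limma 3.58.1 (R 4.3.3; lmFit, eBayes with trend, two-sided, Benjamini-Hochberg over all tested genes, 12996 in BME and 12333 on plastic). The fit was also run on simulated data without differences between lines, so that check does not cover them. A call for dox or for the difference between environments needed both an adjusted p below 0.05 and a change over 1 in either direction. A call for the line needed the adjusted p below 0.05 alone. Pairs were compared by the difference of same-line libraries, with no test. That a line pairs its libraries comes from the labels; deviations of same-line libraries from their group means correlated at 0.744 in BME and at 0.461, 0.612 and 0.247 on plastic. The labels do not say whether lines came from separate animals, so p-values measure the spread between these libraries. Besides the 10 genes, the text names the 5 genes with the largest fitted change per environment from lists written from general knowledge (Tcf4 was listed with Paneth cell signals, Tcf7l2 was not) and the 2 genes most like each tested gene (those most like Lyz1 are not reported here). Other list genes named (Atoh1, Sox9, Spdef, Il22ra1, Slpi, S100a8, S100a9 and other marker genes, and those of the closing section) were picked after their values were seen. The 10 genes and the lists were chosen with earlier results of these data known. Alternatives covered the pseudocount, the filter, scaling, a block for the line, the mock library and each library left out (medians without dox line 889 on plastic and list medians with the block were chosen after seeing the data). Promoters are from RefSeq (GRCm38.p6).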

Additional observations from a re-analysis of the deposited data

Results flagged for a closer look

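In the 4 BME control libraries (3 untreated and the mock), untreated line 889 lay far above the other 3 for 6 of the 10 genes, by a gap test of the highest value against the range of the group. These were Lyz1 (78.7 FPKM), Lypd8 (811 FPKM), Reg3b (333 FPKM), Reg3g (684 FPKM), Ang4 (22.8 FPKM) and Pla2g2a (2576 FPKM). Chance flags about 1 in 20 groups of independent samples, but that rate does not apply here, since untreated and mock libraries of line 682 make up 2 of the 4 and the group holds 3 lines. The 6 flags come from the same library and are not independent. The dox library of the same line in BME was the second highest of the 6 BME libraries for Lyz1, Reg3b, Reg3g, Ang4 and Pla2g2a, and the cause of the high level was not tested.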

How the results depend on the processing

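With 6 libraries per table, 0 of the 9 genes were called for dox in BME, on plastic or for the difference between environments under every alternative run (over the 267 alternative values of the 18 dox changes the lowest limma adjusted p was 0.134, and over the 190 of the 9 differences, or 10 without the filter, it was 0.890). Directions were not stable: 17 of the 18 dox changes changed sign in at least 1 alternative, Pigr in BME being the exception, and causes were not tested beyond what each alternative leaves out. With the replicate block (line) in BME, the changes of Lypd8, Lyz1, Reg3b and Pla2g2a became -2.21, -0.88, -1.77 and -0.24. With the mock library left out, Lypd8 and Reg3b were at -1.09 and -0.44, and with it counted with dox Lypd8, Lyz1, Reg3b and Pla2g2a were at -2.24, -0.68, -1.27 and -0.18. With a pseudocount of 0.1, Lcn2 on plastic was at -0.36. Leaving out 1 library or 1 line moved Mmp7 between -2.37 and 1.54, Lypd8 between -2.21 and 1.26, Lyz1 between -1.71 and 3.10, Reg3b between -1.77 and 2.30, Reg3g between -2.93 and 0.51, Ang4 between -1.34 and 1.03, Pla2g2a between -1.78 and 7.04, Lcn2 between -1.24 and 1.92 and Pigr between 0.52 and 1.24 in BME. On plastic the ranges were -1.85 to 2.27 for Mmp7, -0.39 to 2.67 for Lypd8, -1.22 to 1.79 for Lyz1, -0.74 to 2.05 for Reg3b, -0.87 to 2.98 for Reg3g, -0.98 to 2.93 for Ang4, -1.64 to 4.41 for Pla2g2a, -0.62 to 3.12 for Pigr and -0.22 to 1.49 for Lcn2. Over all genes tested, 3 were called for dox in BME (124 at an unadjusted p under 0.05 with a change over 1), 1 with a pseudocount of 0.1, 0 with the replicate block, with the mock library left out or with it counted with dox, and 0 to 37 with 1 library or line left out (37 without dox line 700). On plastic 4 were called, 10 with a pseudocount of 0.1, 0 without the filter, 7 with the replicate block and 0 to 55 with 1 left out (55 without dox line 700). For the difference, 0 genes were called, and 5 without the filter, none of them among the 10. The line effect was called for 2008 genes in BME, 795 without the filter, 308 with the mock library left out and 0 to 407 with 1 library left out, and on plastic for 202, 0 without the filter and 0 to 596 with 1 left out. Without the filter, Reg3g in BME (adjusted p = 0.0961, limma) and Pigr, Pla2g2a and Reg3g on plastic (0.146, 0.150 and 0.184) lost the line call. Without the mock library Reg3g lost it (0.104). Mmp7 on plastic gained it with median ratio scaling (0.04996). Counted over genes above 0 only, 53 of the 120 ranks lay in the upper 50%.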

Other observations

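Of the marker lists for other cells, 0 genes were called with dox in either environment (limma). The absorptive markers, which include the brush border enzymes Sis and Alpi, summed to 8.70 to 63.3 FPKM in BME and 1.83 to 11.0 FPKM on plastic, and the 4 enteroendocrine markers to 0.126 to 6.85 and 0.0558 to 2.75 FPKM. The 8 listed myeloid markers summed to 28.3 to 44.6 FPKM in BME and 14.8 to 65.1 FPKM on plastic, nearly all of it Cd14 and Cd68, and the neutrophil markers to 1.497 to 25.6 and 2.66 to 36.9 FPKM. The fibroblast markers summed to 1.04 to 8.78 FPKM in BME and 0.558 to 21.8 FPKM on plastic, the highest being dox line 889 through Vim, and the endothelial markers to at most 0.156 FPKM.

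Of the epithelial markers, 9 of 9 tested in BME had a fitted change above 0 with dox (median 0.61, limma, lowest adjusted p = 0.959), but 7 of 9 with the line as a block (median 0.23) and 6 of 8 on plastic, and 0 were called. The keratin Krt8 was at 1.13 ± 0.22 SE in BME and also changed by 0.51 in the mock pair, whereas on plastic it was at 0.15 and Krt19 at -0.95 ± 0.35 SE (limma, adjusted p = 0.942 and 0.567). The interleukin Il18, an epithelial cytokine, changed by -1.03, -0.84 and -0.98 in the plastic pairs of lines 560, 700 and 889 (fitted -0.95 ± 0.34 SE, limma adjusted p = 0.562). The lectins Reg1 and Reg3a were highest in untreated line 889 in BME, at 15.2 and 5.62 FPKM, and were listed at 0 in lines 700 and 889 on plastic. The ribonucleases Rnase4 and Ang were present in all 12 libraries, at 8.42 to 105 and 3.03 to 31.7 FPKM, while Ang4 was listed at 0 in 5.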
